A study of Homo sapiens with 9 samples.

Results

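The small nucleolar RNA host genes are transcripts whose introns carry small nucleolar RNAs (snoRNAs). In the series of transcript tables from H1299 cells, they were taken as every gene named SNHG with a number together with GAS5, ZFAS1, DANCR, CYTOR and MIR17HG, whatever their level. This gave 33 genes of 60966, 28 named SNHG and 5 named otherwise, with 777 transcripts. H1299 is a cell line from a human non-small cell carcinoma of the lung. The cells were transfected for 48 h with 100 nM of a scrambled siRNA (Scramble) or of Si-FIBP#1 or Si-FIBP#2, which both target FIBP, with 3 samples in each group. All 3 groups therefore carried an siRNA and the transfection reagent, and no untransfected cells were measured. Poly(A)-selected RNA was sequenced, so that the spliced host transcripts were measured and the snoRNAs, which have no poly(A) tail, were not.

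The level of each gene was the sum of its transcripts' FPKM, the fragments normalised for transcript length and for the number of mapped fragments. FIBP fell from 77.7 to 88.4 FPKM in the Scramble samples to 4.30 to 7.77 after Si-FIBP#1 and 5.92 to 8.21 after Si-FIBP#2, a log2 difference of -3.50 and -3.36. The samples held about 20200000 to 24150000 fragments each as estimated from the steps between low values, and 13894 to 14715 genes reached 1 FPKM. Within a group the samples correlated at 0.983 to 0.988 (Pearson's r of log2 levels across genes). The mesenchymal marker VIM had means of 3232 FPKM with Scramble, 2307 after Si-FIBP#1 and 1988 after Si-FIBP#2. CDH2, also mesenchymal, had means of 13.3, 17.3 and 18.25 FPKM in the same order. Of 5 epithelial markers KRT8 and KRT18 were expressed, with means of 106.6 and 476 FPKM with Scramble, 73.4 and 209 after Si-FIBP#1 and 75.9 and 175 after Si-FIBP#2, and the part of this in the results was not tested. CDH1, EPCAM and KRT19 stayed at 0.29 FPKM or less and the lung lineage markers NKX2-1, NAPSA, SFTPC and SFTPB at 0.66 or less, and the leukocyte and endothelial markers PTPRC, CD3E, PECAM1 and VWF were at 0.27 or less.

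A host gene is transcribed by RNA polymerase II and spliced, and the excised intron is trimmed to the snoRNA while the joined exons leave as a noncoding RNA. Box C/D snoRNAs (SNORD genes) guide 2′-O-methylation and box H/ACA snoRNAs (SNORA genes) guide pseudouridylation of ribosomal RNA, and small Cajal body RNAs (scaRNAs) guide the same changes in spliceosomal RNA. Many host transcripts begin with a run of pyrimidines as ribosomal protein mRNAs do. Several, GAS5 being the best known, are degraded by nonsense-mediated decay when they are translated.

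A selection of the snoRNAs of 7 hosts whose level changed with both siRNAs is shown here, since they are the product that the excised introns are known for. None is shown of GAS5 and SNHG17, which changed as well. In the box C/D snoRNAs the capitals mark the first ATGA near the 5′ end and CTGA, the box D, near the 3′ end. This ATGA is the core of box C except in SNORD52. There box C reads ATGATGA, and the capitals mark its beginning and not its core. In the box H/ACA snoRNAs they mark the ACA box, which lies 3 bases from the 3′ end.
SNORD93 of SNHG26: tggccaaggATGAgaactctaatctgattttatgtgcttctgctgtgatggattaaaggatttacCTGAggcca
SNORD99 of SNHG12: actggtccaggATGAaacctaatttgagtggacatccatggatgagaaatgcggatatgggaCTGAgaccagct
SNORA61 of SNHG12: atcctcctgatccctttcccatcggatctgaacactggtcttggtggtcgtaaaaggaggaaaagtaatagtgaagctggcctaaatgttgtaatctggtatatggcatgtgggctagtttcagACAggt
SNORD26 of SNHG1: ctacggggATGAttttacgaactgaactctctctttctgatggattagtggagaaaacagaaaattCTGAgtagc
SNORA17A of SNHG7: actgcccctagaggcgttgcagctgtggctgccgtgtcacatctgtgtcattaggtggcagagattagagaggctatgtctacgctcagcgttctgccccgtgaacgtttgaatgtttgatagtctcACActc
SNORA9 of SNHG15: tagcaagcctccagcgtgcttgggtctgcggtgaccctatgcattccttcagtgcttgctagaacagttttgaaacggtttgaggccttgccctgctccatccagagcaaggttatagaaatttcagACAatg
SNORD52 of SNHG32: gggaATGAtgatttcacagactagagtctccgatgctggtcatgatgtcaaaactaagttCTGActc
SNORD60 of SNHG19: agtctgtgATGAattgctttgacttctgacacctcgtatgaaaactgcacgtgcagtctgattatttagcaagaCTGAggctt

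These 8 snoRNAs are 67 to 133 nt long and each lies on the strand of its host in GENCODE release 29 (GRCh38). SNORD93 is at chr7:22856613-22856686 (plus strand), SNORD99 at chr1:28578749-28578822 (minus strand) and SNORD60 at chr16:2155023-2155105 (minus strand), and none of these 3 touches an annotated exon of its host. SNORA61 at chr1:28579764-28579893 (minus), SNORD26 at chr11:62855292-62855366 (minus), SNORA17A at chr9:136726747-136726879 (minus), SNORA9 at chr7:44985378-44985510 (minus) and SNORD52 at chr6:31837076-31837142 (plus) lie wholly within exons of at least 1 annotated transcript of their host. Fragments of unspliced or intron-retaining host RNA can therefore count toward the host there.

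Of the 33 genes, 30 had at least 1 FPKM in at least 3 samples and were tested. SNHG14, the long imprinted host of the SNORD116 cluster on chromosome 15 with 83 SNORD genes inside, was at 0.27 to 0.54 FPKM. SNHG31 was at 0.41 to 0.86 FPKM, and SNHG18 was listed at 0 in every sample.

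The levels spanned over 3 orders of magnitude. The 6 most abundant hosts, SNHG5, GAS5, SNHG29, SNHG6, SNHG8 and ZFAS1, held 75.0% to 78.4% of the FPKM of all 33 genes in every sample. SNHG32, SNHG19, SNHG1, CYTOR and SNHG16 followed with group means between 40.5 and 198 FPKM. At the other end, SNHG28, MIR17HG and SNHG22 had group means of 1.70 FPKM or less.

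Together the 33 genes summed to 3389, 3449 and 3505 FPKM in the Scramble samples, which was 0.43% to 0.447% of all FPKM. With Si-FIBP#1 the sums were 3258, 3183 and 3180 FPKM, below every Scramble sample. With Si-FIBP#2 they were 3545, 3001 and 3488 FPKM, so that this group spread around the Scramble values and its replicate 2 was the lowest of all 9 samples.

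To ask which hosts changed on FIBP depletion, log2(FPKM + 1) was fitted across all 14985 genes that met the same minimum (limma, Benjamini-Hochberg adjustment). A gene passed at an adjusted p below 0.05 and was called differentially expressed when its fold change was also over 2. All differences below are on this log2 scale, which understates the change of genes near 1 FPKM, and are given ± SE. Both siRNAs were compared with the same 3 Scramble samples. In bulk RNA, fewer cells with a transcript and less of it per cell cannot be told apart.

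With Si-FIBP#1, 16 of the 30 hosts passed, where 47.7% of all genes passed. Of these, 13 were lower and 3 were higher, while among all genes 19.9% were lower and 27.8% were higher. With median-ratio scaling 14 hosts were lower and 2 higher, and the balance of all genes turned to 24.1% lower and 22.5% higher. The median difference of the hosts was -0.21, and that of all genes was 0.07. All 3 Si-FIBP#1 samples lay below all 3 Scramble samples for 15 hosts and above them for 5, against 24.3% and 34.5% of all genes. SNHG27 alone was differentially expressed, and it was higher. Among all genes 5.66% were differentially expressed, 2.55% higher and 3.11% lower.

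With Si-FIBP#2, 13 hosts passed, where 48.8% of all genes passed. There were 8 lower and 5 higher, against 17.7% and 31.1% of all genes. The groups were separate in 10 hosts that were lower and 5 that were higher, against 21.2% and 36.1% of all genes. The higher ones include SNHG28, at 0.24 to 0.55 FPKM with Scramble, which met the filter of 1 FPKM in 3 samples through 3 depleted samples alone (1.06 to 1.17 FPKM), so that it adds no support to this count. The median was -0.07 for the hosts and 0.11 for all genes. No host was differentially expressed by limma (SNHG26, at -0.97, was past 2-fold under some alternatives), where 5.05% of all genes were (2.92% higher and 2.13% lower), and 16 hosts had an unadjusted p below 0.05, as did 55.2% of all genes. When the samples were scaled by their median ratio, which moved the median of all genes to 0.0047, 11 hosts were lower and 2 were higher, against 24.5% and 22.3% of all genes under that scaling.

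Across both comparisons 8 hosts passed as lower with each siRNA, 3 passed as higher with each, 5 passed as lower after Si-FIBP#1 alone, 2 passed as higher after Si-FIBP#2 alone, and 12 passed in neither. The same calls were made for 13.7%, 21.8%, 5.83%, 8.88% and 39.5% of all genes. No host passed in opposite directions, and 0.147% and 0.34% of all genes did (higher after Si-FIBP#1 and lower after Si-FIBP#2, and the reverse). Passing with 1 siRNA and not with the other does not show a difference between them, which was tested separately below.

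The 8 hosts that were lower with both siRNAs covered C/D hosts, H/ACA hosts and a host with no snoRNA gene inside. SNHG26, which carries SNORD93, had the largest fall. Its Scramble samples stood at 5.42, 4.79 and 5.28 FPKM, against 2.27, 2.55 and 2.83 after Si-FIBP#1 and 1.72, 2.12 and 2.66 after Si-FIBP#2. Every depleted sample was below every Scramble sample. The differences were -0.80 ± 0.13 (adjusted p = 0.000676) and -0.97 ± 0.13 (adjusted p = 0.00021). The second was past 2-fold with TPM scaling (-1.02), median-ratio scaling (-1.06), a pseudocount of 0.1 (-1.23), and without Scramble replicate 2 (-1.01) or Si-FIBP#2 replicate 3 (-1.08). The fragments in its transcripts of 500 nt or more numbered about 110 to 120 per Scramble sample and 42 to 65 per depleted sample, which limits the precision of these levels.

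SNHG12, which carries SNORD99 and 3 SNORA genes, was at 34.5, 29.1 and 29.97 FPKM with Scramble. After Si-FIBP#1 it was at 19.98, 19.4 and 17.5 FPKM, and after Si-FIBP#2 at 20.8, 19.3 and 18.8. Depleted and Scramble samples did not overlap. The differences were -0.69 ± 0.08 (adjusted p = 0.000117) and -0.64 ± 0.08 (adjusted p = 0.000187). Its main transcript, 1082 nt long, was lower in every depleted sample and went from a mean of 12.5 FPKM to 6.39 and 6.95.

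SNHG1, the host of 8 SNORD genes including SNORD26, was at 101, 93.7 and 94.0 FPKM with Scramble, at 70.1, 65.8 and 65.8 after Si-FIBP#1 and at 65.9, 58.9 and 67.3 after Si-FIBP#2. The separation of the groups was wider than the spread within any of them. It fell by 0.51 ± 0.06 (adjusted p = 0.000131) and by 0.58 ± 0.06 (adjusted p = 6.02e-05). Its level was divided over many transcripts, the most abundant of which (1117 nt) had 16.6% of the gene's FPKM with Scramble.

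SNHG7, which holds 2 SNORA genes including SNORA17A, was at 19.1 to 23.2 FPKM with Scramble, 12.9 to 15.8 after Si-FIBP#1 and 12.1 to 14.6 after Si-FIBP#2, with no overlap. It fell by 0.54 ± 0.11 (adjusted p = 0.00223) and 0.63 ± 0.11 (adjusted p = 0.000928). In GENCODE release 29, 25.2% of its exonic bases lie opposite exons of FAM69B, a gene at a mean of 7.60 FPKM. Whether the libraries or the counting kept strand is not given in the sources used here, so reads of such pairs may not be separable.

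CYTOR, a cytoskeleton regulator RNA with no snoRNA gene inside, was at 62.7 to 69.0 FPKM with Scramble, 47.4 to 51.7 after Si-FIBP#1 and 43.3 to 49.8 after Si-FIBP#2. It fell by 0.40 ± 0.07 (adjusted p = 0.000789) and 0.49 ± 0.07 (adjusted p = 0.000247). A transcript of 529 nt had 88.0% to 89.4% of its FPKM in each group and was lower in all 6 depleted samples.

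SNHG32, the host of SNORD48 and SNORD52, is named C6orf48 and typed as protein coding in GENCODE release 29. It was at 194 to 202 FPKM with Scramble, 138 to 157 after Si-FIBP#1 and 141 to 178 after Si-FIBP#2. The falls were 0.45 ± 0.09 (adjusted p = 0.00198) and 0.28 ± 0.09 (adjusted p = 0.0198, passing in 16 of 18 alternatives). SNHG15 (SNORA9) was at 35.8 to 36.5 FPKM with Scramble, 25.9 to 29.9 after Si-FIBP#1 and 28.98 to 32.4 after Si-FIBP#2, with falls of 0.39 ± 0.07 (adjusted p = 0.00118) and 0.22 ± 0.07 (adjusted p = 0.0203, passing in 15 of 18 alternatives). SNHG17, which carries 4 SNORA71 genes, was at 21.1 to 24.0, 17.4 to 18.6 and 16.6 to 18.0 FPKM in the same order of groups and fell by 0.30 ± 0.07 (adjusted p = 0.00545) and 0.34 ± 0.07 (adjusted p = 0.00263). In all 3 of these hosts the depleted samples lay below the Scramble samples.

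The 3 hosts that were higher with both siRNAs were GAS5, SNHG19 and SNHG27. GAS5, named for its accumulation in growth-arrested cells, holds 10 SNORD genes and 1 SNORA gene. It was at 453, 419.5 and 420.2 FPKM with Scramble, at 557, 545 and 521 after Si-FIBP#1 and at 515, 441 and 500.04 after Si-FIBP#2. All Si-FIBP#1 samples exceeded all Scramble samples, and replicate 2 of Si-FIBP#2 lay inside the Scramble range. The rises were 0.33 ± 0.06 (adjusted p = 0.00195) and 0.17 ± 0.06 (adjusted p = 0.0476). The second of these passed in 7 of 18 alternatives and stood at 0.045 with median-ratio scaling (adjusted p = 0.602).

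Between 50.5% and 56.0% of the GAS5 level came from a transcript of 593 nt that was assembled from the reads and is not an Ensembl entry. This transcript was at 236 to 248 FPKM with Scramble, 267 to 279 after Si-FIBP#1 and 226 to 278 after Si-FIBP#2. A second assembled transcript of 599 nt was at 27.6, 30.1 and 24.2 FPKM with Scramble, at 69.6, 65.7 and 63.1 after Si-FIBP#1 and at 49.4, 36.2 and 37.5 after Si-FIBP#2. It was higher in all 6 depleted samples, and its share of GAS5 was 6.33%, 12.2% and 8.46%. An annotated transcript of 643 nt was also higher in all 6 samples, from a mean of 13.5 FPKM to 23.5 and 24.8. In the other direction, an annotated transcript of 3145 nt was lower in all 6, from a mean of 4.75 FPKM to 3.26 and 3.16.

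SNHG19, which carries SNORD60, was at 106, 98.1 and 107 FPKM with Scramble, at 135, 125 and 137 after Si-FIBP#1 and at 162, 132 and 191 after Si-FIBP#2. Every depleted sample was above every Scramble sample. The rises were 0.35 ± 0.11 (adjusted p = 0.0291, passing in 9 of 17 alternatives) and 0.62 ± 0.11 (adjusted p = 0.00152, passing in all 17). Its only quantified transcript is 342 nt long. The steps between low FPKM matched a length about 260 to 300 nt shorter than the transcript, and on that scale each fragment of such a short transcript carries a large weight.

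SNHG27 was the one host to pass both thresholds. It was at 15.1, 7.43 and 13.7 FPKM with Scramble, at 19.1, 27.0 and 28.0 after Si-FIBP#1 and at 18.7, 21.7 and 22.5 after Si-FIBP#2. The 3 Scramble samples were the lowest, and replicate 2 among them stood apart. The rises were 1.01 ± 0.23 (adjusted p = 0.00533) and 0.80 ± 0.23 (adjusted p = 0.0166). The second passed in 16 of 18 alternatives, and did not pass with no filter on low values or without Si-FIBP#2 replicate 3 (adjusted p up to 0.0575). Assembled transcripts of 267 to 497 nt made up most of its level, 80.2% to 83.2% of which lay in transcripts under 500 nt. With annotated transcripts alone, or with transcripts of at least 500 nt alone, no host passed both thresholds after Si-FIBP#1, nor did any with TPM or median-ratio scaling, without Scramble replicate 2 or without replicate 2 or 3 of Si-FIBP#1. No snoRNA gene lies inside SNHG27 in the RefSeq table used here.

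Another 5 hosts passed as lower after Si-FIBP#1 only. SNHG5, the host of SNORD50A and SNORD50B and the most abundant of the 33, was at 654, 742 and 771 FPKM with Scramble, at 643, 612 and 612 after Si-FIBP#1 and at 679, 598 and 655 after Si-FIBP#2. The Si-FIBP#1 samples were below the Scramble samples, and the Si-FIBP#2 samples overlapped with them. The difference was -0.21 ± 0.07 (adjusted p = 0.0272, passing in 13 of 18 alternatives) and -0.16 ± 0.07 (adjusted p = 0.0694).

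SNHG29, listed as LRRC75A-AS1 in GENCODE release 29 and the host of 3 SNORD genes, was at 513, 531 and 518 FPKM with Scramble. It was at 457, 451 and 435 FPKM after Si-FIBP#1 and at 511, 414 and 503 after Si-FIBP#2. Both depleted groups lay below the Scramble samples, with 511 FPKM against 513 for the nearest pair of Si-FIBP#2 and Scramble. The differences were -0.22 ± 0.07 (adjusted p = 0.0322, passing in 11 of 18 alternatives) and -0.13 ± 0.07 (adjusted p = 0.153).

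SNHG6, on chromosome 8 with SNORD87 inside, was at 445, 434 and 454 FPKM with Scramble, at 366, 369 and 364 after Si-FIBP#1 and at 468, 367 and 439 after Si-FIBP#2. The Si-FIBP#1 samples were separate from Scramble and close together, while the Si-FIBP#2 samples spanned both groups. The difference was -0.28 ± 0.08 (adjusted p = 0.0135) and -0.07 ± 0.08 (adjusted p = 0.455). A transcript of 302 nt fell from 129 to 159 FPKM to 83.2 to 88.2 after Si-FIBP#1, while the main transcript of 638 nt overlapped between groups, at 235 to 265 and 228 to 241 FPKM. Without transcripts under 500 nt the difference after Si-FIBP#1 was -0.10 (adjusted p = 0.203).

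SNHG4 (2 SNORA genes) and SNHG16 (3 SNORD genes) were the other members of this group. SNHG4 was at 26.3 to 31.6 FPKM with Scramble, 22.8 to 23.6 after Si-FIBP#1 and 22.3 to 27.2 after Si-FIBP#2, with differences of -0.28 ± 0.09 (adjusted p = 0.0237, passing in 13 of 18 alternatives) and -0.23 ± 0.09 (adjusted p = 0.0559). In GENCODE release 29, 14.0% of its exonic bases are shared with MATR3 on the same strand. SNHG16 was at 45.5 to 48.3, 39.6 to 41.4 and 39.2 to 48.2 FPKM in the same order, with differences of -0.20 ± 0.07 (adjusted p = 0.0473, passing in 8 of 18 alternatives) and -0.07 ± 0.07 (adjusted p = 0.456).

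The transcripts of SNHG16 did not move together. Its 2435 nt transcript was at 22.2, 24.0 and 22.7 FPKM with Scramble, at 13.3, 15.7 and 16.9 after Si-FIBP#1 and at 21.3, 16.6 and 19.9 after Si-FIBP#2, below Scramble in all 6 samples. Its 1875 nt transcript was at 13.6, 14.9 and 14.7 FPKM with Scramble, at 16.7, 15.1 and 18.5 after Si-FIBP#1 and at 18.3, 16.4 and 19.7 after Si-FIBP#2, above Scramble in all 6. The share of SNHG16 in the shorter one was 30.8% with Scramble, 41.4% after Si-FIBP#1 and 40.7% after Si-FIBP#2. These are estimates of overlapping transcripts and were not tested. Over all hosts, 210 transcripts reached 1 FPKM in at least 3 samples. After Si-FIBP#1, 57 of them (27.1%) lay below every Scramble sample and 26 (12.4%) above, against 18.5% and 21.1% of all such transcripts. After Si-FIBP#2 the counts were 50 (23.8%) and 24 (11.4%), against 16.2% and 21% of all.

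SNHG8 and SNHG11 passed as higher after Si-FIBP#2 only. SNHG8, a host of 1 SNORA gene, was at 263, 277 and 283 FPKM with Scramble, at 296, 276 and 315 after Si-FIBP#1 and at 339, 289.8 and 341 after Si-FIBP#2. The Si-FIBP#2 samples were above Scramble and the Si-FIBP#1 samples overlapped. The difference was 0.11 ± 0.07 (adjusted p = 0.251) and 0.23 ± 0.07 (adjusted p = 0.0235, passing in 11 of 18 alternatives). A transcript of 327 nt carried 67.3% to 79.0% of the gene's level and was higher in all 6 depleted samples, at 171 to 192 FPKM with Scramble and 219 to 257 with the siRNAs to FIBP. The transcripts of 500 nt or more summed to 28.2 to 31.0 FPKM with Scramble, 21.7 to 24.8 after Si-FIBP#1 and 21.4 to 33.1 after Si-FIBP#2, which gave -0.32 (adjusted p = 0.0624) and -0.06 (adjusted p = 0.751). The direction of SNHG8 thus turned when the short transcripts were left out.

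SNHG11, which carries SNORA60 and SNORA71E, was at 8.77 to 10.7 FPKM with Scramble, 8.91 to 10.6 after Si-FIBP#1 and 11.9 to 13.2 after Si-FIBP#2. The Si-FIBP#2 samples were the highest. The difference was 0.29 ± 0.09 (adjusted p = 0.0273, passing in 13 of 18 alternatives) after Si-FIBP#2 and -0.005 after Si-FIBP#1 (adjusted p = 0.972).

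The 12 hosts that passed in neither comparison included ZFAS1, the host of SNORD12, SNORD12B and SNORD12C. It was at 215, 254 and 260 FPKM with Scramble, at 236, 217 and 232 after Si-FIBP#1 and at 247, 204 and 242 after Si-FIBP#2, with all groups overlapping. The 95% intervals of its differences from Scramble were -0.286 to 0.116 and -0.272 to 0.130. Its 504 nt transcript was lower in all 6 depleted samples, from a mean of 26.6 FPKM to 19.4 and 15.4, while its 860 nt transcript was higher in all 6, from 11.7 to 15.1 and 14.4.

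SNHG3, which carries SNORA73A and SNORA73B, was at 36.5, 33.6 and 33.8 FPKM with Scramble, at 22.5, 39.7 and 24.3 after Si-FIBP#1 and at 28.5, 25.5 and 29.4 after Si-FIBP#2. Replicate 2 of Si-FIBP#1 stood above all others, and a transcript of 185 nt was listed at 16.4 FPKM there and at 0 in every other sample. The differences were -0.30 ± 0.17 (adjusted p = 0.180) and -0.31 ± 0.17 (adjusted p = 0.167). With transcripts of at least 500 nt alone, an alternative chosen after the data were seen, they were -0.55 ± 0.07 (adjusted p = 6e-05) and -0.31 ± 0.07 (adjusted p = 0.00289). Both long transcripts, 2201 nt and 2614 nt, were lower in all 6 depleted samples, the second from 4.91 to 5.62 FPKM to 1.64 to 2.25.

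Of the rest of these 12 hosts, DANCR is described below and the other 9 follow here. MIR17HG, the host of the miR-17-92 cluster and not of a snoRNA, was at 1.37 to 1.71 FPKM with Scramble, 0.99 to 1.31 after Si-FIBP#1 and 1.00 to 1.80 after Si-FIBP#2, with adjusted p of 0.285 and 0.499. The 4 scaRNA hosts SNHG10, SNHG20, SNHG21 and SNHG22 had group means of 0.80 to 14.9 FPKM and differences of -0.54 to 0.31. SNHG9, SNHG25, SNHG28 and SNHG30 had group means of 0.35 to 31.2 FPKM and differences of 0.05 to 0.95. SNHG9 and SNHG25, like SNHG19, rest wholly on transcripts under 500 nt. SNHG25 ranged from 1.11 to 11.3 FPKM within Si-FIBP#2, and the 95% interval of its difference from Scramble ran from -0.73 to 1.70.

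The mature miRNAs of MIR17HG that share a seed between main arms are printed to show the families that this host is known for, with the seed, bases 2 to 8, in capitals (RefSeq, GRCh38.p14, plus strand of chromosome 13).
hsa-miR-17-5p: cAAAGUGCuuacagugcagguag
hsa-miR-20a-5p: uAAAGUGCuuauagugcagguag
hsa-miR-19a-3p: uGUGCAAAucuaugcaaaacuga
hsa-miR-19b-3p: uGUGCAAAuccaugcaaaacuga

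The first pair shares the seed AAAGUGC and the second the seed GUGCAAA. They lie at chr13:91350618-91350640, chr13:91351072-91351094, chr13:91350939-91350961 and chr13:91351245-91351267. The mature miRNAs were not measured in these libraries.

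Between the siRNAs, 1 host passed (DANCR, higher after Si-FIBP#2), where 15.4% of all genes passed and 9.58% were higher. By limma no host passed as lower, where 5.8% of all genes did, and none was differentially expressed, where 0.561% of all genes were (0.267% higher and 0.294% lower). At an unadjusted p below 0.05, 7 hosts were higher and 1 was lower, against 18.4% and 11.5% of all genes. The median difference was 0.05 for the hosts and 0.04 for all genes. DANCR, an RNA known for holding cells undifferentiated and the host of SNORA26, was at 31.1, 31.9 and 32.6 FPKM with Scramble, at 26.3, 30.5 and 27.3 after Si-FIBP#1 and at 35.4, 31.1 and 36.4 after Si-FIBP#2. The siRNA groups were separate from each other, with the Scramble samples between them except that replicate 2 of Si-FIBP#2, at 31.08 FPKM, lay just below the lowest Scramble sample, at 31.11. The difference between the siRNAs was 0.28 ± 0.08 (adjusted p = 0.0358). It passed in 8 of 18 alternatives, with adjusted p from 0.00971 to 0.124. A 987 nt transcript carried 78.0% to 92.3% of DANCR, and a transcript of 667 nt was lower than Scramble in all 6 depleted samples. The 987 nt transcript overlapped between the siRNAs, at 23.96 to 27.96 FPKM after Si-FIBP#1 and 27.05 to 31.11 after Si-FIBP#2. The 667 nt transcript, at 0 to 2.97 and 3.22 to 4.54 FPKM, did not, so the separation of the gene sums rests partly on low values.

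SNHG11 was also separate between the siRNAs, with a difference of 0.30 (adjusted p = 0.0617, 95% interval 0.09 to 0.51), and GAS5 was separate in the other direction, at -0.16 (adjusted p = 0.117, 95% interval -0.30 to -0.02). The siRNA groups were thus separate for 2 hosts that were higher and 1 that was lower, against 20.4% and 12.5% of all genes. Without replicate 2 of Si-FIBP#2, 7 hosts passed as higher after Si-FIBP#2 than after Si-FIBP#1 in place of 1, and 11.02% of all genes did in place of 9.58%. Other left-out samples, scalings and filters gave 0 to 3 hosts.

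Read by the kind of guide RNA inside, the C/D hosts numbered 11 among the tested genes, the H/ACA hosts 9 and the scaRNA hosts 4. GAS5 and SNHG12 hold both SNORD and SNORA genes, and 4 genes hold none. With Si-FIBP#1, 7 of the C/D hosts were lower and 1 was higher, and 4 of the H/ACA hosts were lower and none higher, where 19.9% of all genes were lower and 27.8% higher. With Si-FIBP#2 the C/D hosts had 3 lower and 1 higher, and the H/ACA hosts 3 lower and 2 higher, where 17.7% of all genes were lower and 31.1% higher. None of the 4 scaRNA hosts passed with either siRNA. The medians after Si-FIBP#1 were -0.21, -0.28 and 0.0020 for C/D, H/ACA and scaRNA hosts, those after Si-FIBP#2 were -0.07, -0.22 and 0.13, and differences between the kinds were not tested.

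**Figure D1:**
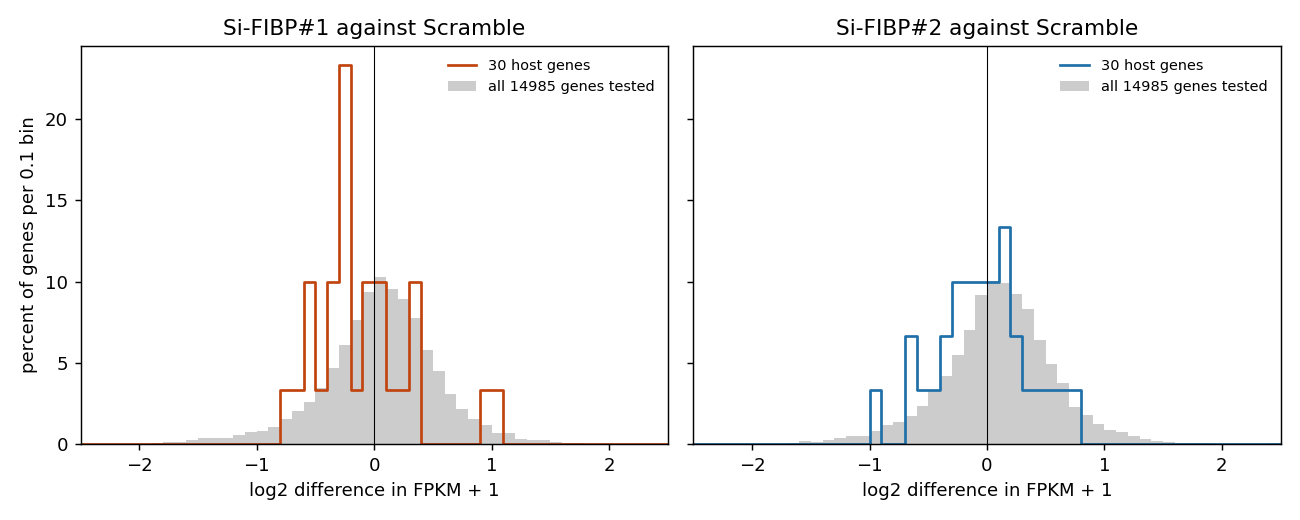
Percent of genes in each bin of 0.1 in log2 difference from Scramble, for the 30 host genes (line) and all 14985 genes tested (grey), after Si-FIBP#1 on the left and Si-FIBP#2 on the right. The host medians are -0.21 and -0.07, and those of all genes are 0.07 and 0.11.

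Since host transcripts are known for a pyrimidine run at the 5′ end, the RefSeq start of each gene was read for C followed by at least 4 bases that are each C or T, on the transcribed strand, beginning within 5 bases of the annotated start. Of 29 hosts with a start window, 14 (48.3%) held such a run, as did 21.1% of 35116 windows of all genes. The RefSeq start is not the GENCODE release 29 start of every host. GAS5 and SNHG27 were read as having no run, at chr1:173869026-173869055 (minus) and chr4:131764828-131764857 (plus). Their starts in GENCODE release 29 are at 173868882 and 131773302, outside these windows. The 30 bases around the start are shown for hosts of the text, the first 10 of which lie before the annotated start, with the run in capitals where there was one.
SNHG12: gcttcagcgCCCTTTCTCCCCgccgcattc
SNHG7: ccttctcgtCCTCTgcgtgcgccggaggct
SNHG32: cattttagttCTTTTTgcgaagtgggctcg
SNHG5: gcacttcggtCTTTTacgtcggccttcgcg
ZFAS1: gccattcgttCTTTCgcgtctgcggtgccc
SNHG19: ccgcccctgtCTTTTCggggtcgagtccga
SNHG1: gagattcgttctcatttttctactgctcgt
SNHG26: taaacttgatctccgcagtgccctcccttt

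These windows are at chr1:28581854-28581883 (SNHG12, minus), chr9:136728165-136728194 (SNHG7, minus), chr6:31834906-31834935 (SNHG32, plus), chr6:85678714-85678743 (SNHG5, minus), chr20:49278632-49278661 (ZFAS1, plus), chr16:2155339-2155368 (SNHG19, minus), chr11:62855866-62855895 (SNHG1, minus) and chr7:22854230-22854259 (SNHG26, plus) of GRCh38.p14. Of the 12 tested hosts with a run, 7 were lower and 1 was higher after Si-FIBP#1, and 4 were lower and 2 higher after Si-FIBP#2. Of the 14 tested hosts with a window and no run, 4 were lower and 2 higher after Si-FIBP#1, and 3 were lower and 3 higher after Si-FIBP#2. The 2 higher ones after Si-FIBP#1 were GAS5 and SNHG27, whose GENCODE release 29 starts lie outside their windows. Both were also among the 3 higher ones after Si-FIBP#2, with SNHG11. Over all genes, with or without a run, 19.9% were lower and 27.8% higher after Si-FIBP#1, and 17.7% and 31.1% after Si-FIBP#2. Among the windows shown, those of SNHG1 and SNHG26 had no run that met this rule. The median difference of the hosts after Si-FIBP#1 was -0.21 with a run and -0.04 without. After Si-FIBP#2 it was -0.15 with a run and 0.115 without. Whether a run goes with the change of a host was not tested. On both strands of the 300-base windows, CACGTG, the E-box of MYC, was found in 2 of the 29 hosts (7.26% of all windows), TTCNNNGAA, the spaced palindrome bound by STAT factors, in 3 (7.66%) and TATAAA in 4 (11.5%).

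Lists of other genes of the pathway were read beside the hosts. Of 20 proteins of the snoRNA particles and their assembly, 9 were lower and 2 higher after Si-FIBP#1, and 11 were lower and 1 higher after Si-FIBP#2, with medians of -0.15 and -0.24. Of all genes 19.9% and 17.7% were lower and 27.8% and 31.1% higher, with medians of 0.07 and 0.11. SNU13, which binds the core fold of C/D snoRNAs, fell from a mean of 149.7 FPKM to 89.2 and 95.8 (differences of -0.74 ± 0.04, adjusted p = 2.08e-06, and -0.64 ± 0.04, adjusted p = 5.32e-06). NOP10, a small protein of the H/ACA particle, rose by 0.37 ± 0.07 after Si-FIBP#1 (adjusted p = 0.00131) and was at 0.15 ± 0.07 after Si-FIBP#2 (adjusted p = 0.0922). No gene of this list was differentially expressed in either comparison, where 5.66% and 5.05% of all genes were.

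Another list held 31 symbols of protein-coding genes known to carry snoRNAs, 1 of which (GNB2L1) is an older name of RACK1 in the list, so that 30 genes were tested. Of these, DKC1, NOP56 and NOP58 are also in the first list. The counts were 17 lower and 5 higher after Si-FIBP#1 and 19 lower and 4 higher after Si-FIBP#2, read against the same shares of all genes, with medians of -0.24 and -0.28. RCC1, whose transcription unit joins that of SNHG3 and which shares 242 exonic bases with it on the same strand, was differentially expressed with both siRNAs. It fell from a mean of 83.5 FPKM to 34.3 and 28.95, with differences of -1.26 ± 0.09 (adjusted p = 4.93e-06) and -1.505 ± 0.09 (adjusted p = 2.26e-06). BTF3, a transcription factor subunit also found in the nascent polypeptide complex, was at a mean of 1097 FPKM with Scramble, 1115 after Si-FIBP#1 and 221 after Si-FIBP#2. Its fall of 2.35 ± 0.17 after Si-FIBP#2 (adjusted p = 5.7e-06) stood beside 0.02 ± 0.17 after Si-FIBP#1 (adjusted p = 0.916), and the siRNAs differed by -2.38 (adjusted p = 8.65e-05). CHD8, a chromatin remodeler, rose by 0.43 ± 0.07 (adjusted p = 0.000754) and 0.47 ± 0.07 (adjusted p = 0.000483).

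Nonsense-mediated decay factors, by which several host transcripts are known to be degraded, showed both directions. Of 17 genes, 5 were lower and 2 higher after Si-FIBP#1, and 6 were lower and 5 higher after Si-FIBP#2, with medians of -0.06 and -0.04. Thus 7 and 11 of the 17 passed, where 47.7% and 48.8% of all genes did. NBAS rose by 0.37 ± 0.07 (adjusted p = 0.00149) and 0.50 ± 0.07 (adjusted p = 0.000269). None of the 17 was differentially expressed, where 5.66% and 5.05% of all genes were.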

How the data were processed

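RNA-seq tables of 9 samples (Scramble, Si-FIBP#1 and Si-FIBP#2, 3 each) were used. For each sample the authors deposited FPKM of single transcripts, most with an Ensembl identifier and the others assembled (5.45% to 5.84% of all FPKM). The unit was read from the values. HISAT2 and StringTie are named in the submitters' processing notes, with no version, and the build, the annotation and the strand setting are not given in the sources used here. The low FPKM of genes with 1 transcript clustered at multiples of a step, from which the depth was estimated, with the best match when about 260 to 300 nt were subtracted from each length. StringTie is not known to subtract such a length, so the program that gave the deposited values is uncertain. Transcript FPKM were summed per gene, and log2(FPKM + 1) was tested with limma 3.58.1 in R 4.3.3 (trend, 1 fit over all 9 samples) with Benjamini-Hochberg adjustment over 14985 genes. Intervals are 95% intervals of the fit. The samples are described as independent, and whether they came from separate cultures is not stated, so p-values measure the spread between these samples. With no counts, the precision is that of the replicates. In simulated data the fit recovered 94% to 95.5% of 200 changed genes among 14985, with changes of 1.5 on the log2 scale. A smaller change was simulated as well, and its recovery is not reported here. The percentages given do not cover changes as small as in most hosts, or data in which as many genes change as here.

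The host genes and the 3 lists were chosen with earlier results of these data known. All hosts with at least 1 FPKM in 3 samples are named. Values by sample are given for those past both thresholds, those that differ between the siRNAs, the 6 most abundant, and further hosts chosen after their values were seen. From the lists, genes past both thresholds, or otherwise the largest change in each direction, are named. Some items named by these rules are not reported here. Positions and snoRNA sequences come from GENCODE release 29 (GRCh38), which has 331 of the 764 annotated host transcripts, and counts of snoRNA genes, start windows and miRNAs from RefSeq (GRCh38.p14, all 33 hosts matched by symbol or identifier, 29 with a window). Alternatives were TPM and median-ratio scaling, a pseudocount of 0.1, no filter or 5 FPKM, only the 2 groups compared, annotated transcripts only, a replicate block and leaving out each sample, and, added after the data were seen, transcripts of at least 500 nt only. Python 3.11.15, pandas 2.3.3, numpy 2.4.6 and matplotlib 3.10.9 were used for tables and figures.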

Additional observations from a re-analysis of the deposited data

Results flagged for a closer look

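DANCR was the one host whose level differed between the siRNAs by a test of that difference, 0.28 (adjusted p = 0.0358) higher with Si-FIBP#2 than with Si-FIBP#1, where 15.4% of all genes passed. Its means were 34.3 and 28.0 FPKM, with all 3 Si-FIBP#2 samples above all 3 Si-FIBP#1 samples, and against Scramble it was at 0.10 (adjusted p = 0.300) and -0.18 (adjusted p = 0.0774). The result passed in 8 of 18 alternatives, and adjusted p ranged from 0.00971 to 0.124. No group had the 4 samples needed to test for a single sample that stands apart. With 1 sample left out, DANCR did not pass without Scramble replicate 2 or 3, or without replicate 1 or 3 of either siRNA to FIBP.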

How the results depend on the processing

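Of 55 differences of single genes, 44 passed as reported, and 31 of these passed in every alternative run. All hosts lower with both siRNAs kept their direction in every alternative, but after Si-FIBP#2 SNHG15 did not pass in 3 of 18 (without Scramble replicate 1 or 2 or Si-FIBP#2 replicate 2, adjusted p up to 0.0544) and SNHG32 in 2 of 18 (no filter, and without Scramble replicate 2, up to 0.0591). With Si-FIBP#1, 2 to 4 hosts passed as higher and 9 to 14 as lower when 1 sample was left out (23.2% to 30.04% and 17.2% to 21.4% of all genes), and 5 passed as higher with the 2 groups alone (28.6% of all genes). The count of differentially expressed hosts, 1 as reported (SNHG27), was 0 with TPM scaling, median-ratio scaling, annotated transcripts, transcripts of at least 500 nt and hosts with a snoRNA gene inside, and 0 to 1 with a sample left out (0 without Scramble replicate 2, Si-FIBP#1 replicate 2 or Si-FIBP#1 replicate 3). Of all genes, 6.1% (TPM scaling), 5.77% (median ratio), 5.63% (annotated transcripts) and 5.33% (at least 500 nt) were differentially expressed there. With a sample left out, 5.66% to 5.94% of all genes were.

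Median-ratio scaling moved the median of all genes from 0.073 and 0.111 to 0.0037 and 0.0047. After Si-FIBP#2, 5 hosts passed as higher, but 2 with median-ratio scaling, 1 with no filter and 2 with transcripts of at least 500 nt. The share of all genes went from 31.1% to 22.3%, 13.6% and 34.3% there. Leaving out 1 sample gave 2 to 5, with 2 without Si-FIBP#2 replicate 1 and 3 without Scramble replicate 2, Scramble replicate 3 or Si-FIBP#2 replicate 3, and 26.2% to 30.8% of all genes. GAS5, SNHG8, SNHG11 and SNHG27 did not pass without Si-FIBP#2 replicate 3, so the count there includes hosts other than the 5 reported. The lower count was 7 to 9 (15.5% to 17.8% of all genes). Differentially expressed hosts numbered 1 in place of 0 with TPM scaling, median-ratio scaling, a pseudocount of 0.1 and annotated transcripts, and 0 to 1 with a sample left out (1 without Scramble replicate 2 or Si-FIBP#2 replicate 3). This host was SNHG27 with annotated transcripts and SNHG26 in the others. Of all genes, 5.57% (TPM scaling), 5.21% (median ratio), 9.42% (pseudocount of 0.1) and 5.12% (annotated transcripts) were differentially expressed there. With a sample left out, 4.96% to 5.64% of all genes were. Between the siRNAs, 1 host passed as higher, but 3 with TPM scaling, 0 with median-ratio scaling, no filter or the 2 groups alone, 2 with at least 5 FPKM and 3 with transcripts of at least 500 nt, where the share of all genes, 9.58% as reported, was 3.07% to 13.6%. Leaving out 1 sample gave 0 to 7 (5.37% to 11.02% of all genes), with 7 without Si-FIBP#2 replicate 2, 2 without Si-FIBP#1 replicate 2, and 0 without Scramble replicate 2, Si-FIBP#1 replicates 1 or 3 or Si-FIBP#2 replicate 1.

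Differences that did not pass and changed sign were BTF3 after Si-FIBP#1 (-0.021 with TPM scaling, -0.055 with median-ratio scaling, -0.005 without Scramble replicate 1, and up to 0.044 with another sample left out), SNHG11 after Si-FIBP#1 (0.041, 0.032 and 0.065 without Scramble replicate 1, Scramble replicate 2 and Si-FIBP#1 replicate 3, and down to -0.088), DANCR after Si-FIBP#2 (-0.018 with median-ratio scaling), SNHG16 and SNHG6 after Si-FIBP#2 (0.017 and 0.028 without Si-FIBP#2 replicate 2, and down to -0.129 and -0.147) and SNHG8 after Si-FIBP#1 (-0.318 with transcripts of at least 500 nt). With the same transcripts alone, SNHG6 was at 0.013 and SNHG8, which passed as reported, at -0.055 after Si-FIBP#2. The causes were not tested, except that the last alternative leaves out the short transcripts by construction.

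Same-numbered samples of different groups had residual correlations of -0.057 to 0.103, and differently numbered ones of -0.142 to 0.049. Between the siRNAs to FIBP, same-numbered pairs were at 0.046 to 0.097 and the others at 0.008 or less. As all were small, the numbers were not taken to pair the samples, and a weak pairing is not excluded. With the replicate number as a block, 12 hosts passed as lower and 3 as higher after Si-FIBP#1, against 19.6% and 27.6% of all genes. Without the block these were 13 and 3 hosts, against 19.9% and 27.8% of all genes. After Si-FIBP#2, 8 hosts passed as lower and 5 as higher with the block, against 17.7% and 30.95% of all genes. Between the siRNAs, 1 host other than DANCR passed as higher after Si-FIBP#2 than after Si-FIBP#1, as did 9.18% of all genes. Under the block SNHG16 after Si-FIBP#1 was at -0.20 (adjusted p = 0.0578) and DANCR between the siRNAs at 0.28 (adjusted p = 0.0597).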
